A study of Mus musculus with 19 samples.

Results

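Phase II enzymes attach a polar group to drugs, hormones, bile pigments and dietary chemicals, and carboxylesterases split esters and amides. The genes described here are the UDP-glucuronosyltransferases (Ugt1a and Ugt2), the cytosolic glutathione S-transferases of the alpha, mu, omega, pi and theta classes, Gstk1 and the microsomal Mgst genes, the sulfotransferases (Sult) and the carboxylesterases (Ces). They were picked out by symbol, and 78 of 32694 gene symbols in the table matched. Of these, 46 reached 10 normalized counts in at least 5 of 19 libraries and are described, among 18445 genes that passed the same filter. They comprised 4 of 7 Ugt1a genes, 2 of 10 Ugt2 genes, 17 of 19 cytosolic Gst genes, all 4 Gstk and Mgst genes, 7 of 19 Sult genes and 12 of 19 Ces genes.

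RNA came from the colon of mice aged 12 weeks in 3 groups. One comprised 7 single colon tumours (3 female, 4 male) labelled Apc/Tgif, in which Villin-Cre, active in gut epithelium, was used to delete 1 allele of Apc together with Tgif1 and Tgif2 (both alleles of each). Another comprised 7 single Apc tumours (3 female, 4 male), in which the same Cre deleted 1 allele of Apc only. The third was normal colon of 5 wild-type mice (3 female, 2 male). Both tumour groups thus share the Apc deletion and the Cre, and only epithelial cells carry the designed deletions, while each library holds the RNA of all cells in the piece. Apc restrains Wnt signalling, and Tgif1 and Tgif2 are related homeodomain repressors.

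In the gut, phase II conjugation is carried out largely by differentiated epithelial cells, which thereby limit the uptake of drugs and dietary chemicals. Glucuronosyltransferases use UDP-glucuronate, sulfotransferases use the sulphate donor PAPS, and glutathione S-transferases use glutathione. Conjugates leave the cell through ABC pumps. The Ugt1a enzymes come from a single locus in which alternative first exons are joined to shared later exons, whereas most Ugt2, Gst and Ces genes lie in clusters of separate copies. Carboxylesterases of the Ces2 class are abundant in gut epithelium, and human CES2 activates the colon cancer drug irinotecan.

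The targeted genes were examined first. Tgif1 averaged 354 normalized counts in Apc/Tgif-labelled tumours, 3815 in Apc tumours and 964 in wild-type colon, a log2 difference of -3.47 between the tumour groups (SE 0.17, limma adjusted p = 2.54e-10). Tgif2 averaged 2657 normalized counts in Apc/Tgif-labelled tumours, 642 in Apc tumours and 161 in wild-type colon, which goes against the label (2.05, SE 0.16, limma adjusted p = 1.14e-07). A count over the whole gene does not show whether the deleted part was transcribed, and every direction given for these tumours rests on their label. Totals lay between 34417808 and 44732717 normalized counts per library, about 28700000 to 49100000 counts. The share of 45S pre-ribosomal RNA was 0.171% to 9.35%, and it passed 1% in Apc/Tgif-labelled tumour 5 and wild-type colons 2 and 4. Replicates of a group correlated across genes at Pearson's r of 0.935 to 0.985 (Apc/Tgif-labelled), 0.943 to 0.984 (Apc) and 0.965 to 0.983 (wild type).

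Other cell types moved with the groups. The summed level of 9 pan-epithelial marker genes was 347054 to 440434 normalized counts in Apc/Tgif-labelled tumours, 296309 to 538404 in Apc tumours and 462906 to 581123 in wild-type colon. That of 7 colonocyte genes was 9109 to 40021, 21853 to 75128 and 201453 to 255867 in the same groups. That of 7 goblet cell genes was 13235 to 64200 in Apc/Tgif-labelled tumours, 59572 to 260038 in Apc tumours and 446009 to 832383 in wild-type colon. Markers of differentiated epithelium were thus lowest in Apc/Tgif-labelled tumours, and 5 of 7 colonocyte and 6 of 7 goblet cell genes were called lower there than in Apc tumours. Summed smooth muscle levels in both tumour groups lay below wild type, at 10043 to 18731 in Apc/Tgif-labelled tumours, 13160 to 22505 in Apc tumours and 200911 to 299987 in wild-type colon. Distal colon genes (Hoxa13, Hoxb13, Hoxd12 and Hoxd13) summed to 7995 to 22556 in Apc/Tgif-labelled tumours, 1834 to 20689 in Apc tumours and 20180 to 23898 in wild-type colon, with 1 of 4 genes called lower in each tumour group than in wild type and none between the tumour groups (limma). Hoxb13, the most abundant of the list, averaged 7639 in Apc/Tgif-labelled tumours, 4679 in Apc tumours and 14701 in wild-type colon, and both tumour groups lay wholly below wild type. Immune markers moved too. Macrophage genes summed to 6414 to 12372 in Apc/Tgif-labelled tumours, 6728 to 9902 in Apc tumours and 3643 to 4784 in wild-type colon. B cell genes summed to 114 to 320.1, 75.8 to 273 and 536 to 5057, and mast cell genes to 298 to 1669, 48.3 to 566 and 8.62 to 43.5, in the same groups, so that these 3 sums parted both tumour groups from wild type without overlap. Fibroblast sums were 47440 to 95898 in Apc/Tgif-labelled tumours, 77535 to 162090 in Apc tumours and 50399 to 78237 in wild-type colon. Sums of small-intestinal enterocyte genes were 26.5 to 102, 61.0 to 1486 and 678 to 1625, and those of hepatocyte genes 2178 to 6244, 893 to 10094 and 1663 to 2274, in the same groups. No gene of these lists was at 0 in every library of a group. The part of these cell types in the results below was examined only where a covariate is named, within the limits given there. Fewer cells of a type and less RNA per cell cannot be told apart in bulk tissue, and the loss of muscle and of differentiated cells cannot be told apart from tumour genotype in the comparisons with wild type.

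Most of the conjugation and esterase genes fell in tumours. In Apc/Tgif-labelled tumours against wild-type colon, 36 of 46 were called lower and 3 higher (limma, adjusted p under 0.05 over 18445 genes), against 25.5% and 24.8% of all genes tested. In Apc tumours against wild-type colon the counts were also 36 lower and 3 higher, against 25.2% and 23.9% of all genes. The median log2 difference of the 46 genes was -2.03 in Apc/Tgif-labelled tumours and -1.34 in Apc tumours, whereas that of all genes was 0.00 and -0.01. Groups did not overlap for 29 lower and 2 higher genes in Apc/Tgif-labelled tumours, against 16.5% and 14.1% of all genes, and for 27 lower and 1 higher in Apc tumours, against 15.4% and 14.0%. These comparisons share the 5 wild-type libraries. With libraries scaled to equal totals, which put the median log2 difference of all genes from wild type at 0.15 in Apc/Tgif-labelled and 0.19 in Apc tumours, 35 of the 46 genes were lower and 5 higher in Apc/Tgif-labelled tumours, and 34 lower and 3 higher in Apc tumours. All genes then split into 5810 higher and 3843 lower in Apc/Tgif-labelled tumours, against 4576 and 4708 as deposited, and into 6160 and 3417 in Apc tumours, against 4415 and 4639.

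Between the tumour groups, 17 of the 46 genes were called lower in Apc/Tgif-labelled than in Apc tumours and 5 higher, against 8.76% and 7.88% of all genes tested. Their median difference was -0.66 on the log2 scale, against -0.01 over all genes. Values of the groups did not overlap for 5 of the 46: Ugt2b34 was above (2.30% of all genes were), and Ces2e, Gstk1, Sult1c2 and Sult1d1 were below (1.77%), Ces2e by 0.11 normalized counts only. For 15 genes the loss was stepwise, lower in Apc tumours than in wild type and lower again in Apc/Tgif-labelled tumours, and 18 genes were lower in both tumour groups with no call between them. Ugt1a1 and Ugt2b34 took another form, with a fall in Apc tumours alone and higher levels in Apc/Tgif-labelled than in Apc tumours. The share of all genes with each of these forms was not counted, so the forms are not shown to be particular to these genes. Of the 15 stepwise genes, Ces1d, Gstk1, Sult4a1 and Ugt1a7c lost a call when some single libraries were left out. With the goblet cell level as a covariate, 1 of the 17 lower calls between tumour groups, that of Gsta4, was left and none of the 5 higher, with 6 higher at unadjusted p under 0.05, and over all genes 175 higher and 109 lower calls were left. Goblet cell sums of the tumour groups barely overlapped (13235 to 64200 in Apc/Tgif-labelled and 59572 to 260038 in Apc tumours). This covariate can therefore hardly be told apart from the label, and no conclusion on goblet cells is drawn from it.

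Fitted on 1 sex alone, which leaves fewer libraries, some calls were lost. In Apc/Tgif-labelled tumours against wild type, 5 of 39 were lost in females (Ces1c, Ces2g, Gstm7, Gstt2 and Mgst2) and 3 in males (Ces1c, Gsta4 and Gstm7). In Apc tumours against wild type, 6 of 39 were lost in females (Ces1b, Ces1g, Gstk1, Gstm4, Gsto2 and Sult4a1) and 6 in males (Ces1d, Gstk1, Gstm5, Gsto2, Mgst1 and Ugt1a6a). Between the tumour groups, 10 of 22 were lost in females (Ces1d, Ces1e, Ces1f, Ces1g, Ces2c, Gstm1, Gstm2, Sult1b1, Ugt1a2 and Ugt1a7c) and 4 in males (Ces2f, Ces2g, Mgst1 and Sult4a1), while 7 other genes gained a call in females and 4 in males. With the distal colon level as a covariate, the calls of Ces1c in Apc/Tgif-labelled tumours against wild type, of Ces1b and Gstm5 in Apc tumours against wild type, and of Ces1d, Ces1g and Ces2g between the tumour groups were lost.

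**Figure D1:**
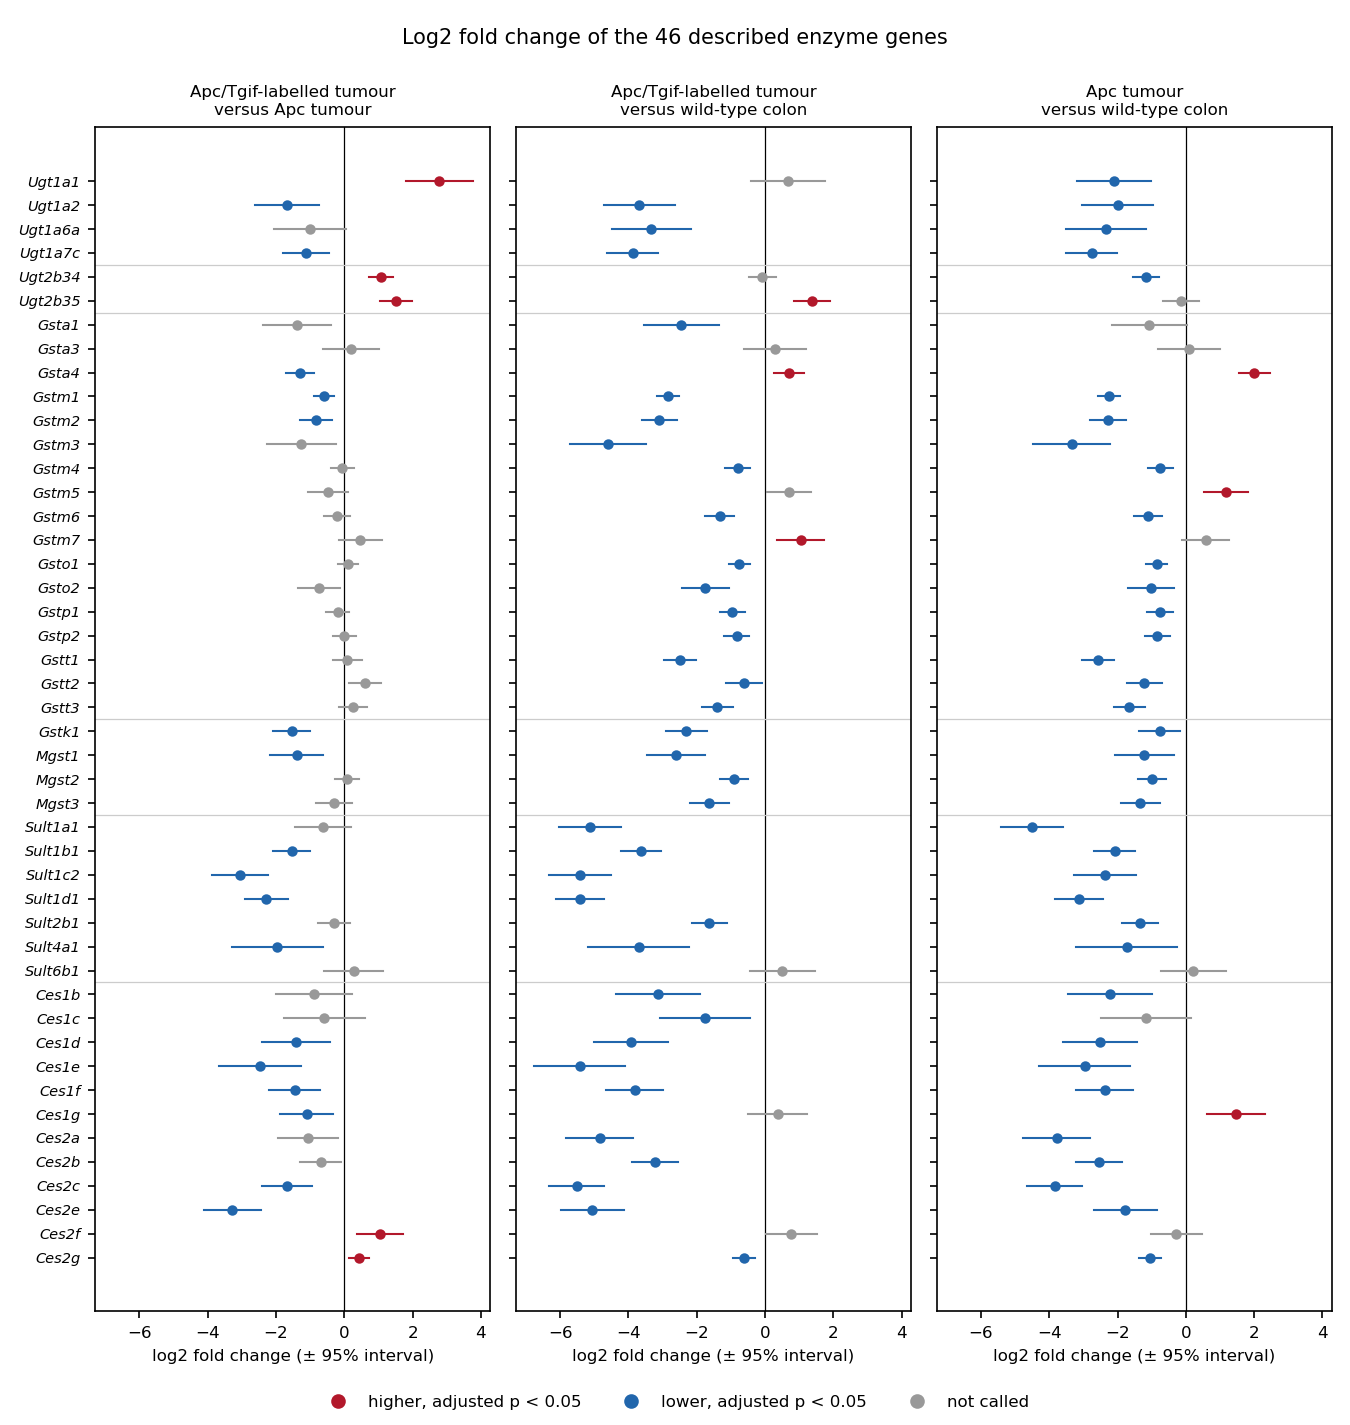
Log2 difference of each of the 46 genes, by family, with the 95% limma interval, for Apc/Tgif-labelled tumours against wild-type colon, Apc tumours against wild-type colon and Apc/Tgif-labelled against Apc tumours. Red points (higher) and blue points (lower) passed an adjusted p of 0.05, and grey points did not. Most coloured points lie left of 0 in the comparisons with wild type. Between the tumour groups Ugt1a1, Ugt2b34, Ugt2b35, Ces2f and Ces2g are the red points.

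The Ugt1a genes changed places with each other. The 4 described genes share the locus at chromosome 1, which ends at 88220002 on GRCm38.p6, and 3 of them were lowest in Apc/Tgif-labelled tumours, while Ugt1a1, which glucuronidates bilirubin, was lowest in Apc tumours. Promoters are shown for Ugt1a1 and Ugt1a2, which lie in the same locus and moved in opposite directions between the tumour groups. The 250 bases before each RefSeq start are given 5′ to 3′ on the gene's strand, chr1:88211709-88211958 (plus) and chr1:88200361-88200610 (plus), with the Hnf1 letters and the Tgif core in capitals.
Ugt1a1: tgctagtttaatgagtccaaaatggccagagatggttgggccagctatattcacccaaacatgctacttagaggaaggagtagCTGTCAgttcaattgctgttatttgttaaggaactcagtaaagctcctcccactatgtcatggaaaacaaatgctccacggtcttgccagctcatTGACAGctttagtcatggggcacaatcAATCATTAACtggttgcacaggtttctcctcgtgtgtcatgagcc
Ugt1a2: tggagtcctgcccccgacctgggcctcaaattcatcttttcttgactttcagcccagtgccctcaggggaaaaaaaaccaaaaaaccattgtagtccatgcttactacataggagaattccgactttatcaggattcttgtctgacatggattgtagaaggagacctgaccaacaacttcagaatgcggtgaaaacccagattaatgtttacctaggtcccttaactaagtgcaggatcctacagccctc
The Ugt1a1 stretch holds the Hnf1 letters (GTTAAT, any base, ATT) at -45 on the minus strand, and the Tgif core CTGTCA at -167 on the plus strand and at -72 on the minus strand, counted from the start. In the Ugt1a2 stretch none of the letters searched was found.

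Ugt1a1 had 325 to 2080.0 (median 759.8) normalized counts in Apc/Tgif-labelled tumours, 35.0 to 357 (median 87.9) in Apc tumours, and 668, 378, 354, 425 and 505 in wild-type colons. The tumour groups overlapped only through Apc tumour 4, the highest of its group, which lay above the lowest Apc/Tgif-labelled tumour. Against Apc tumours the difference was 2.78 (SE 0.46, limma adjusted p = 0.000456), the largest rise among the 46 genes, and Apc tumours themselves differed from wild type by -2.10 (SE 0.51, limma adjusted p = 0.00222). Apc/Tgif-labelled tumours and wild-type colon overlapped, at 0.68 (SE 0.51, limma adjusted p = 0.287). Ugt1a7c, the isoform with the highest level per kb in wild-type colon, had 397 to 1158 (median 599) in Apc/Tgif-labelled tumours, 514 to 2922 (median 1879) in Apc tumours and 10920.2, 10159, 10581, 8155 and 10116 in wild-type colons. Both tumour groups lay wholly below wild type, at -3.88 (SE 0.36, limma adjusted p = 4.74e-08) and -2.76 (SE 0.36, limma adjusted p = 4.41e-06), and they overlapped each other. The call between the tumour groups, -1.12 (SE 0.33, limma adjusted p = 0.0233), was lost without Apc tumour 1, Apc tumour 7 or Apc/Tgif-labelled tumour 4, with an adjusted p of up to 0.0567.

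Ugt1a2 had 47.6 to 282 (median 116) normalized counts in Apc/Tgif-labelled tumours, 143 to 819.9 (median 471) in Apc tumours and 1283, 1429.8, 715, 3337 and 1805 in wild-type colons. It was lower in Apc/Tgif-labelled than in Apc tumours (-1.68 (SE 0.45, limma adjusted p = 0.0141)) and in Apc tumours than in wild type (-2.00 (SE 0.50, limma adjusted p = 0.00254)), with overlap in both steps. Ugt1a6a, which conjugates flat phenols, had 17.8 to 179 (median 43.4) in Apc/Tgif-labelled tumours, 26.4 to 321 (median 145) in Apc tumours and 802, 687, 407, 410.0 and 652 in wild-type colons. It fell against wild type, at -3.33 in Apc/Tgif-labelled and -2.33 in Apc tumours, and its difference between tumour groups did not pass the test (95% interval -2.05 to 0.05, limma adjusted p = 0.196). The isoforms share their later exons, so reads had to be divided among them. Of all 75-base stretches of its longest coding transcript, Ugt1a7c shared 69.1% with other genes, Ugt1a2 63.3% and Ugt1a1 57.7%. Ugt1a6a shared every one, all of them with Ugt1a7c, so the sharing went beyond the later exons. No stretch of Ugt1a6a was thus particular to it, and its value cannot be told apart by sequence from that of Ugt1a7c. The single values of this locus are therefore uncertain, and a read in the shared exons cannot be told apart by isoform.

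Ugt2b34 had the highest level per kb of the described glucuronosyltransferases in every group. Ugt2b enzymes act on steroids, bile acids and drugs, and Ugt2b34 and Ugt2b35 were the only 2 of 10 Ugt2 genes that passed the filter. Ugt2b34 had 13026 to 24386 (median 18261) normalized counts in Apc/Tgif-labelled tumours, 6524 to 12217 (median 8384) in Apc tumours and 25436, 19355, 22798, 16001 and 17594 in wild-type colons. Every Apc/Tgif-labelled tumour lay above every Apc tumour, at 1.08 (SE 0.17, limma adjusted p = 0.000217), and the levels overlapped those of wild type (-0.08 (SE 0.18, limma adjusted p = 0.748)), whereas Apc tumours lay wholly below wild type (-1.16 (SE 0.18, limma adjusted p = 3.77e-05)). Ugt2b35 had 1894 to 4792 (median 3457) in Apc/Tgif-labelled tumours, 625 to 2599 (median 1287) in Apc tumours and 2015, 1809.7, 1651, 967 and 1081 in wild-type colons. It was higher in Apc/Tgif-labelled tumours than in Apc tumours (1.51 (SE 0.23, limma adjusted p = 0.000177)) and than in wild type (1.37 (SE 0.25, limma adjusted p = 0.000138)), with overlap in both cases, and Apc tumours differed from wild type by -0.14 (SE 0.25, limma adjusted p = 0.67). The 250 bases before the Ugt2b34 start, chr5:86906938-86907187 (minus), are shown because this gene parted the tumour groups without overlap, and they hold none of the letters searched, with a CTGTCA match only after the start, at 31.
Ugt2b34: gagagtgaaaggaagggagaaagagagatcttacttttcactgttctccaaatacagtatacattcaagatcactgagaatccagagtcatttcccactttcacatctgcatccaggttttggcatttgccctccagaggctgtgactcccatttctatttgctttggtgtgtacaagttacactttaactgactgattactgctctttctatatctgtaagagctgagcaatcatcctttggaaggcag

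**Figure D2:**
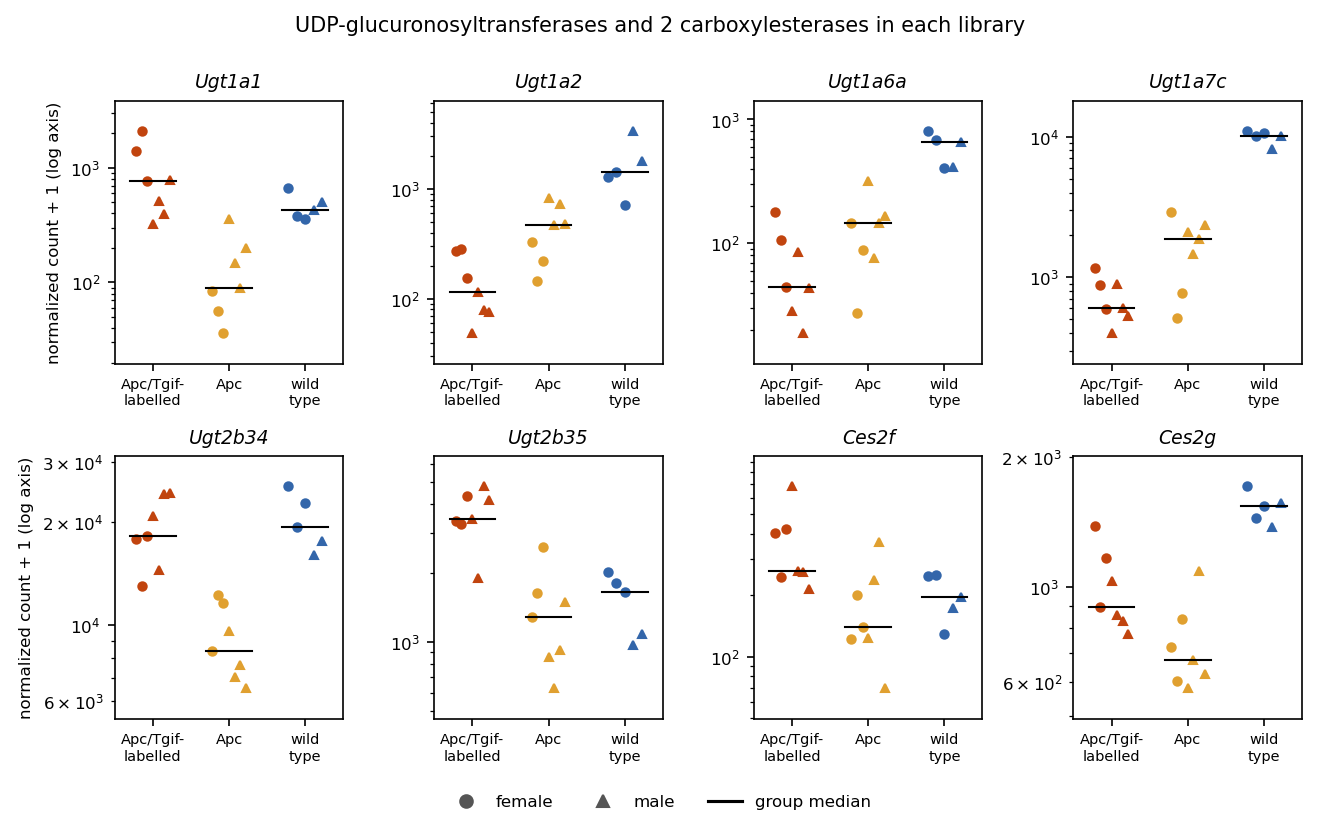
Normalized counts plus 1 per library (log axis) of 4 Ugt1a genes, 2 Ugt2b genes, Ces2f and Ces2g in Apc/Tgif-labelled tumours, Apc tumours and wild-type colon, with circles for females, triangles for males and a bar at the median. Ugt1a1 and Ugt2b34 are lowest in Apc tumours, and Ugt2b34 shows no overlap between the tumour groups.

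Of the 7 described sulfotransferases, 6 were called lower in each tumour group than in wild type. Of all genes tested, 25.5% were lower in Apc/Tgif-labelled and 25.2% in Apc tumours. Sult1a1, which sulphates simple phenols, had 105 to 484 (median 188) normalized counts in Apc/Tgif-labelled tumours, 133 to 941 (median 418) in Apc tumours and 10277, 7620.2, 7696, 6533 and 7701 in wild-type colons. Both tumour groups lay wholly below wild type (-5.13 (SE 0.43, limma adjusted p = 1.31e-08) and -4.51 (SE 0.43, limma adjusted p = 1.04e-07)), and between them the difference did not pass the test (-0.62 (SE 0.39, limma adjusted p = 0.315)). Sult1b1, which acts on thyroid hormones and phenols, had 379 to 1055 (median 796) in Apc/Tgif-labelled tumours, 925 to 3176 (median 2296) in Apc tumours and 8198, 8199, 8166, 8014 and 7481 in wild-type colons. It was lower at each step, at -1.54 (SE 0.26, limma adjusted p = 0.000414) and -2.09 (SE 0.28, limma adjusted p = 6.27e-06), with overlap between the tumour groups only.

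Sult1c2 and Sult1d1 were the sulfotransferases whose values did not overlap between the tumour groups. Sult1d1, a catecholamine sulfotransferase of the mouse, had 110.0 to 299 (median 188) normalized counts in Apc/Tgif-labelled tumours, 329 to 1921 (median 941) in Apc tumours and 8483, 6893, 7419, 5739 and 5329 in wild-type colons. The 3 groups did not overlap, and the steps were -2.28 (SE 0.30, limma adjusted p = 6.19e-05) between the tumour groups and -3.13 (SE 0.33, limma adjusted p = 3.85e-07) in Apc tumours against wild type. Sult1c2 had 12.5 to 76.1 (median 24.2) in Apc/Tgif-labelled tumours, 99.8 to 544 (median 244) in Apc tumours and 1216, 1084, 984, 1220.0 and 1223 in wild-type colons. Its difference between the tumour groups, -3.07 (SE 0.39, limma adjusted p = 4.36e-05), was without overlap, and Apc tumours differed from wild type by -2.36 (SE 0.43, limma adjusted p = 0.000178). The promoter of Sult1d1 is shown, chr5:87569007-87569256 (minus), because it held 3 of the motifs searched, which are in capitals: Cdx letters TTTATG at -231, Hnf1 letters at -79 and the Ahr core TNGCGTG at -47.
Sult1d1: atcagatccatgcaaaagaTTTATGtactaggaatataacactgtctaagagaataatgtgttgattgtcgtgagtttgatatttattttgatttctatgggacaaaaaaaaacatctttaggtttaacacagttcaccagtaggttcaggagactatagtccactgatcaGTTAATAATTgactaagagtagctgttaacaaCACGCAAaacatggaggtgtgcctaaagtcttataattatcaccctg

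Sult2b1, which sulphates cholesterol and other sterols, had 156 to 747 (median 482) normalized counts in Apc/Tgif-labelled tumours, 419 to 669.8 (median 509) in Apc tumours and 1289.6, 1283, 974, 1823 and 1248 in wild-type colons. It was lower in both tumour groups (-1.64 (SE 0.25, limma adjusted p = 1.78e-05) and -1.34 (SE 0.25, limma adjusted p = 0.000182)), and the difference between them was -0.29 (adjusted p = 0.425). Sult4a1, known from brain, had 3.30 to 54.7 (median 7.83) in Apc/Tgif-labelled tumours, 4.87 to 142 (median 43.2) in Apc tumours and 110.3, 117, 169, 237 and 118 in wild-type colons. The Apc tumours spread widely and overlapped both other groups. Its call between the tumour groups, -1.96 (SE 0.64, limma adjusted p = 0.0406), was lost without any 1 of Apc/Tgif-labelled tumours 1, 2, 3, 4 and 6 or Apc tumours 1, 2, 3, 4 and 7 (adjusted p up to 0.0951). In Apc tumours against wild type (-1.74 (SE 0.70, limma adjusted p = 0.0481)) the call held only without Apc/Tgif-labelled tumours 3 or 5 or Apc tumours 1, 3 or 4, and the adjusted p was otherwise up to 0.128. Sult6b1, at 2.72 to 53.5 (median 27.5) in Apc/Tgif-labelled tumours, 16.3 to 23.4 (median 19.2) in Apc tumours and 15.3, 18.5, 12.3, 18.9 and 11.5 in wild-type colons, was called in no comparison.

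Most carboxylesterases fell in tumours, and a pair of neighbours rose between the tumour groups. All 12 described genes lie on chromosome 8, the Ces1 genes between 93056725 and 93337209 and the Ces2 genes between 104734003 and 104969537 (GRCm38.p6). Against wild type, 10 of 12 were called lower and none higher in Apc/Tgif-labelled tumours, with 1 higher at unadjusted p under 0.05 (limma), and 9 lower and 1 higher in Apc tumours. Of all genes, 25.5% were lower and 24.8% higher in Apc/Tgif-labelled tumours, and 25.2% and 23.9% in Apc tumours. Between the tumour groups, 6 of the 12 were lower and 2 higher, against 8.76% and 7.88% of all genes.

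Ces2c, which had the highest level per kb of the class in wild-type colon, had 214 to 613 (median 313) normalized counts in Apc/Tgif-labelled tumours, 349 to 2178 (median 1454) in Apc tumours and 15610.0, 13944, 10344, 17318 and 16445 in wild-type colons. Both tumour groups lay far below wild type (-5.51 (SE 0.39, limma adjusted p = 1.38e-09) and -3.84 (SE 0.39, limma adjusted p = 1.92e-07)), and overlapped each other (-1.68 (SE 0.35, limma adjusted p = 0.00268)), since Apc tumours 2 and 3 were as low as the Apc/Tgif-labelled tumours. Ces2e had 82.3 to 502 (median 164) in Apc/Tgif-labelled tumours, 503 to 3328 (median 2156) in Apc tumours and 5447, 5540.1, 4078, 6190.4 and 5756 in wild-type colons. It was the member with the steepest fall between the tumour groups, -3.28 (SE 0.40, limma adjusted p = 2.82e-05), with no overlap but with the highest Apc/Tgif-labelled value (502.46) only 0.11 below the lowest Apc value (502.57), while Apc tumours differed from wild type by -1.77 (SE 0.44, limma adjusted p = 0.00259). Ces2a had 70.9 to 821 (median 261) in Apc/Tgif-labelled tumours, 225 to 1170.0 (median 441) in Apc tumours and 7549.6, 5899, 5007, 7966 and 7299 in wild-type colons. It fell in Apc tumours against wild type (-3.78 (SE 0.47, limma adjusted p = 2.28e-06)), and the difference between the tumour groups did not pass the test (-1.06 (SE 0.42, limma adjusted p = 0.0973)). Ces2b, at 10.8 to 43.5 (median 30.4), 23.1 to 59.7 (median 45.4) and 325, 217, 229, 224 and 215 in Apc/Tgif-labelled tumours, Apc tumours and wild-type colons, had the same form (-3.23 and -2.54 against wild type, limma adjusted p = 9.24e-08 and 2.57e-06).

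The neighbours Ces2f and Ces2g behaved otherwise. Ces2g had 776 to 1384 (median 896) normalized counts in Apc/Tgif-labelled tumours, 579 to 1088 (median 674) in Apc tumours and 1708, 1444, 1535, 1371 and 1561 in wild-type colons. It was lower in both tumour groups (-0.62 (SE 0.16, limma adjusted p = 0.00303) and -1.05 (SE 0.16, limma adjusted p = 2.02e-05)) but higher in Apc/Tgif-labelled than in Apc tumours (0.44 (SE 0.14, limma adjusted p = 0.0419)), and that last call was kept only without Apc/Tgif-labelled tumours 2, 5, 6 or 7 or Apc tumour 6 (adjusted p up to 0.0941). Ces2f, named after its values were seen for its direction, had 213 to 680.5 (median 261) in Apc/Tgif-labelled tumours, 68.9 to 364 (median 138) in Apc tumours and 247, 251, 128, 172 and 196 in wild-type colons. Its only call was between the tumour groups (1.05 (SE 0.32, limma adjusted p = 0.0315)), and was lost without Apc/Tgif-labelled tumours 1, 3 or 4 or Apc tumours 1, 3, 4 or 7 (adjusted p up to 0.0709).

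Among the Ces1 genes, which include the lipid hydrolases of liver, Ces1f had 31.9 to 67.4 (median 49.7) normalized counts in Apc/Tgif-labelled tumours, 56.3 to 288 (median 158) in Apc tumours and 926, 865, 541, 439.7 and 824 in wild-type colons, with a difference between the tumour groups of -1.45 (SE 0.36, limma adjusted p = 0.0089). Ces1e had 1.56 to 26.1 (median 9.38) in Apc/Tgif-labelled tumours, 9.89 to 126 (median 56.3) in Apc tumours and 399, 372, 260.1, 322 and 420.4 in wild-type colons, and the difference was -2.47 (SE 0.58, limma adjusted p = 0.00626). Both were also lower in Apc tumours than in wild type (-2.37 for Ces1f and -2.97 for Ces1e). Ces1d, a triacylglycerol hydrolase, differed by -2.51 (SE 0.52, limma adjusted p = 0.000572) in Apc tumours against wild type (-3.93 in females and -1.10 in males, where the call was lost), and its call between the tumour groups (-1.42 (SE 0.47, limma adjusted p = 0.0454)) was kept only without Apc/Tgif-labelled tumours 1 or 2, Apc tumours 2 or 3 or wild-type colons 3 or 4 (adjusted p up to 0.0931). Ces1g went the other way, named for that after its values were seen: it had 72.5 to 355 (median 195) in Apc/Tgif-labelled tumours, 201 to 1049 (median 482) in Apc tumours and 226, 176, 168, 86.2 and 166 in wild-type colons. It was higher in Apc tumours than in wild type (1.47 (SE 0.41, limma adjusted p = 0.00611)), a call lost in females alone (0.56, against 2.29 in males alone) and without the libraries with over 1% 45S pre-ribosomal RNA (1.22, adjusted p = 0.0685), and the lower level in Apc/Tgif-labelled tumours (-1.10 (SE 0.37, limma adjusted p = 0.049)) kept its call, when single libraries were left out, only without Apc/Tgif-labelled tumours 1 or 3, Apc tumours 2 or 3 or wild-type colon 4 (adjusted p up to 0.109). Ces1b was lower in both tumour groups, and Ces1c, the plasma esterase of the mouse, passed in Apc/Tgif-labelled tumours against wild type (-1.75 (SE 0.63, limma adjusted p = 0.0254)) but not without wild-type colons 1 or 5 or Apc/Tgif-labelled tumour 2 (adjusted p up to 0.0707).

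**Figure D3:**
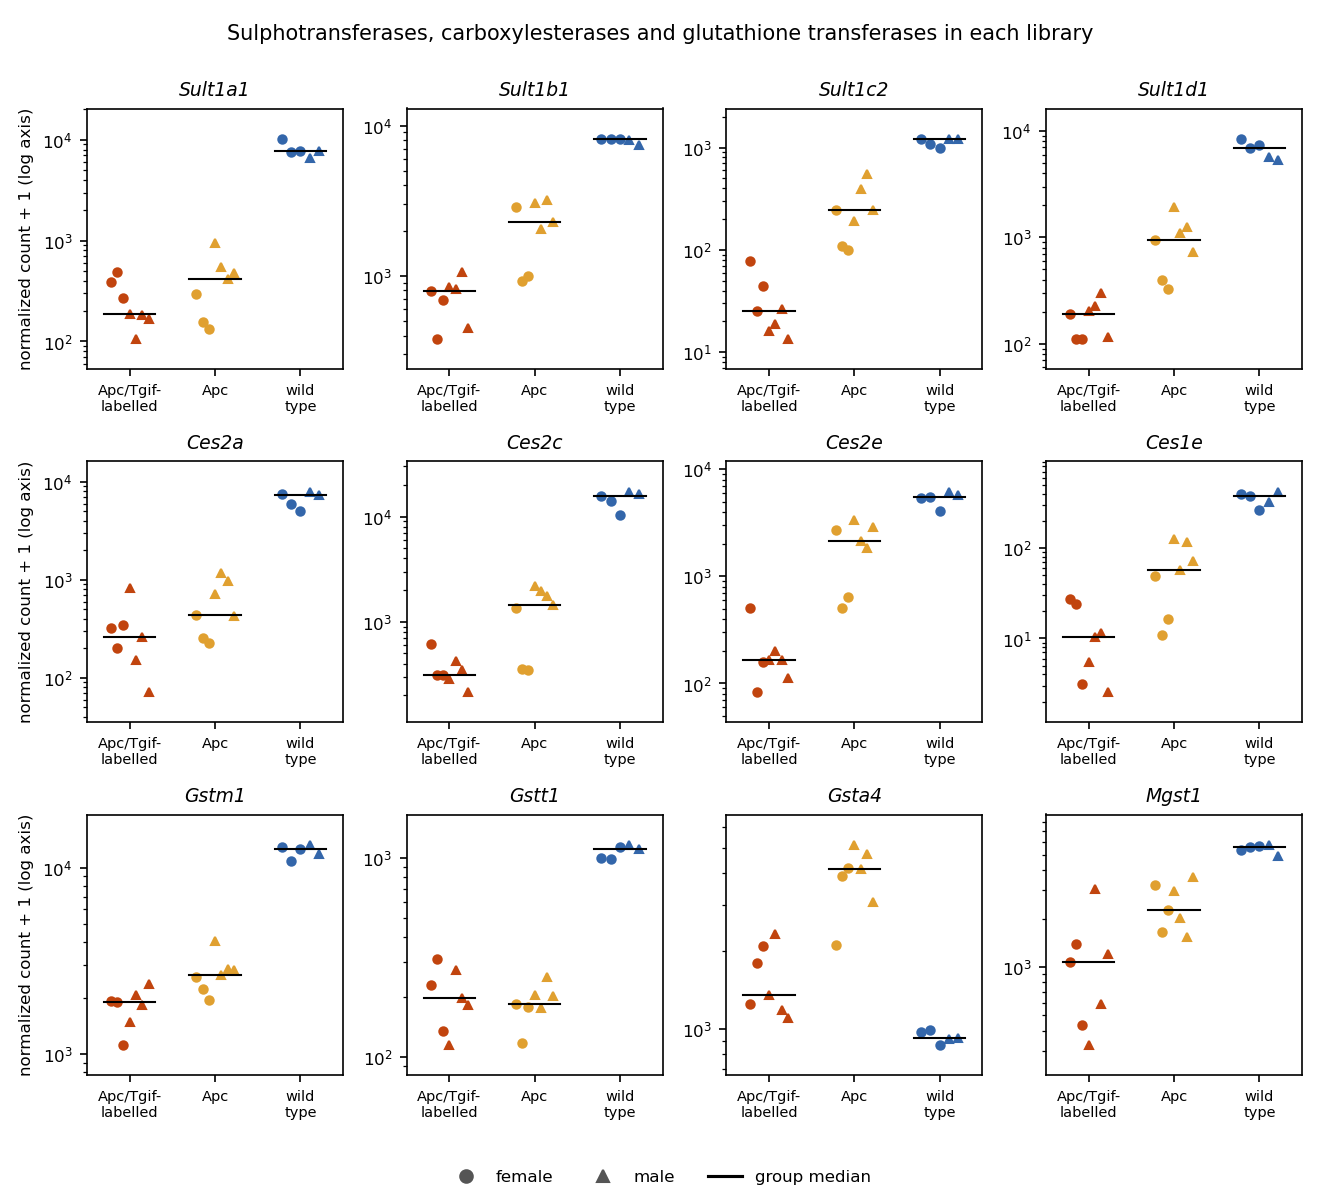
Normalized counts plus 1 per library (log axis) of 4 Sult, 4 Ces and 4 glutathione S-transferase genes in Apc/Tgif-labelled tumours, Apc tumours and wild-type colon, with circles for females, triangles for males and a bar at the median. Sult1c2, Sult1d1 and Ces2e are lowest in Apc/Tgif-labelled tumours, higher in Apc tumours and highest in wild-type colon, and Gsta4 stands highest in Apc tumours.

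Of 17 described cytosolic glutathione S-transferases, 3 were called lower in Apc/Tgif-labelled than in Apc tumours and none higher (limma), with 1 higher at unadjusted p under 0.05. Of all genes tested, 8.76% were lower there and 7.88% higher. Against wild type, 13 of the 17 were lower and 2 higher in Apc/Tgif-labelled tumours, against 25.5% and 24.8% of all genes. In Apc tumours 12 were lower and 2 higher, against 25.2% and 23.9%. In the alpha class, Gsta4, which conjugates the lipid peroxidation product 4-hydroxynonenal, had the largest rise of the 46 genes in Apc tumours. It had 1098 to 2330.3 (median 1352) normalized counts in Apc/Tgif-labelled tumours, 2114 to 5152 (median 4136) in Apc tumours and 975, 989.9, 866, 911 and 923 in wild-type colons. Both tumour groups lay wholly above wild type (0.70 (SE 0.21, limma adjusted p = 0.0101) and 2.01 (SE 0.21, limma adjusted p = 3.56e-07)), and Apc/Tgif-labelled tumours were lower than Apc tumours (-1.31 (SE 0.19, limma adjusted p = 0.000161)). The call in Apc/Tgif-labelled tumours against wild type was lost in males alone (0.63, limma adjusted p = 0.101) and without the libraries with over 1% 45S pre-ribosomal RNA (0.63, limma adjusted p = 0.0606). Gsta3, whose mouse enzyme detoxifies aflatoxin epoxide, had 502 to 2310.3 (median 1869.8) in Apc/Tgif-labelled tumours, 484 to 2304 (median 933) in Apc tumours and 876, 1240.5, 887, 1006 and 1313 in wild-type colons, and was called nowhere. Gsta1 had 86.7 to 405 (median 164) in Apc/Tgif-labelled tumours, 98.9 to 1305 (median 600.1) in Apc tumours and 1225, 1159, 572, 826 and 1168 in wild-type colons. It was called only in Apc/Tgif-labelled tumours against wild type (-2.46 (SE 0.52, limma adjusted p = 0.000667)), and 86.3% of its 75-base stretches occur in other genes, so its value is uncertain.

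The mu class is a cluster on chromosome 3. Gstm1, a broad conjugator of electrophiles with the highest level per kb of the cluster in wild-type colon, had 1120.5 to 2369 (median 1914) normalized counts in Apc/Tgif-labelled tumours, 1959 to 4056 (median 2663) in Apc tumours and 12887, 10886, 12519.9, 13301 and 11897 in wild-type colons. Tumours and wild type did not overlap (-2.84 (SE 0.16, limma adjusted p = 4.42e-11) and -2.24 (SE 0.16, limma adjusted p = 1.58e-09)), while the tumour groups did (-0.59 (SE 0.14, limma adjusted p = 0.00651)). Gstm2 had 289 to 738 (median 479) in Apc/Tgif-labelled tumours, 467 to 1540.4 (median 868) in Apc tumours and 4053, 3568, 4385, 4246 and 3890.3 in wild-type colons and moved likewise (-0.82 (SE 0.22, limma adjusted p = 0.016) between the tumour groups). Gstm3 fell furthest of the class, with 8.06 to 249 (median 117) in Apc/Tgif-labelled tumours, 133 to 302 (median 190.3) in Apc tumours and 1763, 1669, 1783, 1989 and 1842 in wild-type colons. Its differences from wild type were -4.60 (SE 0.54, limma adjusted p = 8.13e-07) and -3.34 (SE 0.54, limma adjusted p = 4.32e-05), and that between the tumour groups did not pass the test (-1.26, adjusted p = 0.0856).

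Within the same cluster a pair of genes rose. Gstm5 had 1140.1 to 4305 (median 2127) normalized counts in Apc/Tgif-labelled tumours, 1382 to 5487 (median 3135) in Apc tumours and 1176, 1266, 1417, 1533 and 1230.3 in wild-type colons, and was higher in Apc tumours than in wild type (1.18 (SE 0.31, limma adjusted p = 0.00405)). This call was lost in males alone (0.73, against 1.75 in females alone) and with the distal colon covariate (0.76, limma adjusted p = 0.0717). Gstm7 had 699.6 to 1985 (median 916) in Apc/Tgif-labelled tumours, 278 to 1345 (median 857) in Apc tumours and 516, 448, 521, 578 and 502 in wild-type colons, and was higher in Apc/Tgif-labelled tumours than in wild type (1.05 (SE 0.33, limma adjusted p = 0.012)). This call was lost when either sex was fitted alone. The model with a mean for each sex in each group called it in males (1.30, limma adjusted p = 0.032) and not in females (0.74, limma adjusted p = 0.184). Gstm6 had 173 to 463 (median 305) in Apc/Tgif-labelled tumours, 269.7 to 459 (median 370.1) in Apc tumours and 795, 673, 793, 757 and 710.2 in wild-type colons. It was lower in both tumour groups (-1.33 and -1.11), as was Gstm4 (-0.80 and -0.75), and neither differed between them beyond the threshold.

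Over both sexes, no gene of the theta, omega and pi classes was called between the tumour groups (limma), with 2 at unadjusted p under 0.05. In females, Gstt3 (0.94, limma adjusted p = 0.00672) and Gstt2 (1.11, limma adjusted p = 0.0139) were higher in Apc/Tgif-labelled than in Apc tumours, and Gstt3 and Gstp2 were among the genes whose effect differed between the sexes. Gstt1, which acts on small halogenated compounds, had 114 to 308 (median 196) normalized counts in Apc/Tgif-labelled tumours, 116 to 249.9 (median 183) in Apc tumours and 998, 982, 1128, 1167 and 1112 in wild-type colons. It differed by -2.48 (SE 0.23, limma adjusted p = 3.35e-08) and -2.57 (SE 0.23, limma adjusted p = 3.45e-08), without overlap, and the tumour groups differed by 0.09 (95% interval -0.34 to 0.52). Gstt3 had 701 to 1206 (median 1056) in Apc/Tgif-labelled tumours, 424 to 1353 (median 853) in Apc tumours and 2275, 2361, 2485, 2649.8 and 2603 in wild-type colons, and differed by -1.40 and -1.65. For Gstt2 the call in Apc/Tgif-labelled tumours (-0.62 (SE 0.25, limma adjusted p = 0.0432)) was lost without any 1 of Apc/Tgif-labelled tumours 3, 4, 6 and 7, Apc tumour 3 or wild-type colons 2, 4 and 5 (adjusted p up to 0.118). Gsto1, a reductase of dehydroascorbate, had 5595 to 8957 (median 6485) in Apc/Tgif-labelled tumours, 4160.0 to 7742 (median 7040.0) in Apc tumours and 10634, 10857, 7999.8, 14085 and 11554 in wild-type colons. It differed by -0.75 (SE 0.15, limma adjusted p = 0.000356) and -0.86 (SE 0.15, limma adjusted p = 0.000111), and Gsto2, at a median of 24.8 in wild-type colon, differed by -1.75 and -1.02. The pi genes Gstp1 and Gstp2, which share 57.7% and 68.2% of their stretches with other genes, mainly each other, differed by -0.96 and -0.83 in Apc/Tgif-labelled tumours and by -0.76 and -0.83 in Apc tumours.

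Gstk1 and the 3 Mgst genes were called lower in both tumour groups than in wild type. The share of all genes was 25.5% in Apc/Tgif-labelled and 25.2% in Apc tumours. Gstk1, the kappa enzyme of mitochondria and peroxisomes, had 70.0 to 341 (median 219) normalized counts in Apc/Tgif-labelled tumours, 389.7 to 901 (median 544) in Apc tumours and 784, 829.8, 1132, 1186 and 858 in wild-type colons. The tumour groups did not overlap (-1.54 (SE 0.26, limma adjusted p = 0.000476)), while the call in Apc tumours against wild type (-0.76 (SE 0.29, limma adjusted p = 0.0342)) was lost without Apc tumours 2, 3, 5 or 6 or wild-type colons 2, 3 or 4 (adjusted p up to 0.084). Mgst1, a membrane enzyme of endoplasmic reticulum and mitochondria, had 325 to 3043 (median 1068) in Apc/Tgif-labelled tumours, 1533 to 3611 (median 2264) in Apc tumours and 5337, 5598, 5690.1, 5787 and 4893 in wild-type colons, with -1.40 (SE 0.37, limma adjusted p = 0.0136) between the tumour groups. Mgst3, another membrane enzyme, had 2892 to 5962 (median 4493) in Apc/Tgif-labelled tumours, 2638 to 10147 (median 6479) in Apc tumours and 11001, 11471, 11565, 17922 and 13473 in wild-type colons. Mgst2 had 995 to 1733 (median 1392) in Apc/Tgif-labelled tumours, 795 to 1806 (median 1313) in Apc tumours and 2109, 2202, 1727, 3235 and 2977 in wild-type colons. Both were lower against wild type, at -1.63 and -1.33 for Mgst3 and -0.91 and -0.99 for Mgst2, with no call between the tumour groups.

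The make-up of the families also differed between groups. Normalized counts were divided by the length of the longest coding transcript (GENCODE M21), and each gene is given as its share of its family per kb. Ugt1a1 made up a median of 53.4% of the Ugt1a level in Apc/Tgif-labelled tumours (39.2% to 68.0%), 8.16% in Apc tumours (3.28% to 12.2%) and 4.39% in wild-type colon (4.04% to 6.61%). The share did not overlap between the tumour groups, and Ugt1a7c made up the largest share of the others, at 29.5%, 58.5% and 72.8% in the same groups. The median summed Ugt1a level was 587 normalized counts per kb in Apc/Tgif-labelled tumours, 1012 in Apc tumours and 4354 in wild-type colon. For Ugt2 it was 5526, 2335 and 5045 in the same groups, so the median of Ugt2 stood above that of Ugt1a in each.

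In the Ces2 class, Ces2c made up 21.4% in Apc/Tgif-labelled tumours, 32.1% in Apc tumours and 55.1% in wild-type colon. Ces2g made up 36.5%, 11.2% and 3.93%, and Ces2f 18.0%, 4.68% and 0.72%, in the same groups. The median Ces2 sum was 820.2 normalized counts per kb in Apc/Tgif-labelled tumours, 2299 in Apc tumours and 14630.0 in wild-type colon, so the larger shares of Ces2f and Ces2g went with a far smaller sum. Among sulfotransferases, Sult2b1 made up 30.6% in Apc/Tgif-labelled tumours, 15.4% in Apc tumours and 5.36% in wild-type colon, and Sult1a1 19.5%, 11.6% and 43.4%. In the Ces1 class, Ces1g made up 48.6%, 40.9% and 5.70%, and in the mu class Gstm5 made up 41.3%, 43.9% and 8.32%, in Apc/Tgif-labelled tumours, Apc tumours and wild-type colon. These shares are descriptions, without a test.

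**Figure D4:**
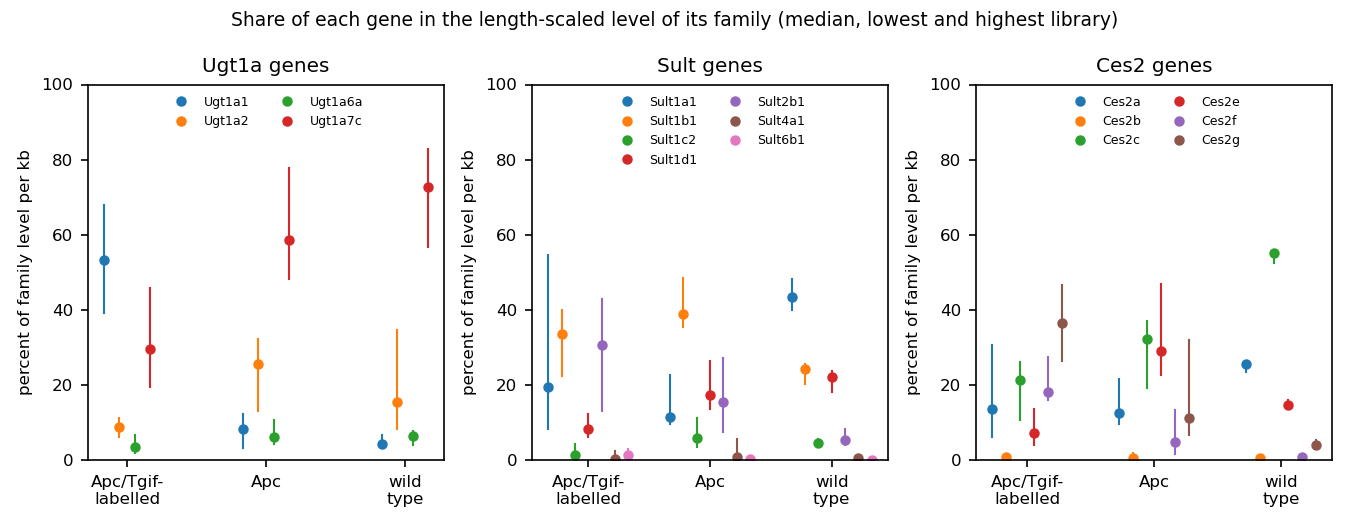
Median share (percent, with a line over the range of libraries) of each gene in the summed level per kb of its family, for the Ugt1a, Sult and Ces2 families, in Apc/Tgif-labelled tumours, Apc tumours and wild-type colon. Ugt1a1 takes 53.4% of the Ugt1a level in Apc/Tgif-labelled tumours, against 8.16% in Apc tumours and 4.39% in wild-type colon. The Ugt1a shares depend on how reads in shared sequence were divided and on the transcript lengths used.

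The 32 matched genes that missed the filter were low or silent: 11 were listed at 0 in every library, among them all 8 Sult2a genes, 21 were above 0 in at least 1 library, and 23 of the 32 had a highest value under 10 normalized counts. The other 9 reached 10 in 1 to 4 libraries, with a highest value of 41.8 for Gsta2, 28.5 for Ugt1a10 and 20.6 for Ugt1a5.

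Genes that supply the cofactors are described from lists chosen with the members. Shares of all genes called were 24.8% higher and 25.5% lower in Apc/Tgif-labelled tumours against wild type, and 23.9% and 25.2% in Apc tumours. Between the tumour groups they were 7.88% and 8.76%. For UDP-glucuronate, all 3 genes were called lower in Apc/Tgif-labelled tumours and 2 of 3 in Apc tumours against wild type, with median log2 differences of -0.95 and -0.59. Ugdh, which makes UDP-glucuronate, averaged 1519 normalized counts in Apc/Tgif-labelled tumours, 3248 in Apc tumours and 10937 in wild-type colon, and differed between the tumour groups without overlap (-1.08 (SE 0.15, limma adjusted p = 6.83e-05)). For sulphate activation, 3 of 5 genes were lower in Apc/Tgif-labelled tumours and 4 of 5 in Apc tumours, where 1 was higher (medians -0.54 and -0.42). The sulphate transporter Slc26a2 averaged 1520.4 in Apc/Tgif-labelled tumours, 2835 in Apc tumours and 29698 in wild-type colon, while the PAPS synthase Papss1 was higher in Apc/Tgif-labelled than in Apc tumours (0.44 (SE 0.14, limma adjusted p = 0.0364)). Of 8 glutathione genes, 4 were higher and 4 lower in Apc/Tgif-labelled tumours, and 2 were higher and none lower in Apc tumours, with 0 lower also at unadjusted p under 0.05 (limma, medians -0.16 and 0.27). Slc7a11, the cystine importer, averaged 3699.8 in Apc/Tgif-labelled tumours, 2271 in Apc tumours and 494 in wild-type colon, and glutathione reductase Gsr rose in both (0.64 and 0.56). Ggt1, which breaks down glutathione outside the cell, was lower in Apc/Tgif-labelled than in Apc tumours (-2.11 (SE 0.31, limma adjusted p = 0.000129)).

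The efflux pumps split. For the lists of this paragraph, all genes tested were 24.8% higher and 25.5% lower in Apc/Tgif-labelled tumours against wild type. They were 23.9% and 25.2% in Apc tumours, and 7.88% and 8.76% between the tumour groups. Of 8 genes, 4 were higher and 3 lower in Apc/Tgif-labelled tumours than in wild type, 5 higher and 3 lower in Apc tumours, and 1 higher and 4 lower between the tumour groups, with medians of 0.59, 0.98 and -0.35 in that order. Abcc4 averaged 7751 normalized counts in Apc/Tgif-labelled tumours, 4401 in Apc tumours and 1208 in wild-type colon, and rose between the tumour groups without overlap (0.82 (SE 0.15, limma adjusted p = 0.00123)). Abcb1a, the P-glycoprotein of gut, averaged 798, 4108 and 29517 in the same groups, and Abcg2 321, 1074 and 3179.7. Both were lower in Apc/Tgif-labelled than in Apc tumours, at -2.13 (SE 0.34, limma adjusted p = 0.000277) for Abcb1a and -1.66 (SE 0.27, limma adjusted p = 0.000357) for Abcg2, without overlap. Among 8 other hydrolases, 2 were higher and 5 lower in Apc/Tgif-labelled tumours, and 1 higher and 4 lower in Apc tumours (medians -0.74 and -0.62). Gusb, the glucuronidase that splits glucuronides, rose in both (1.25 and 1.32), and the epoxide hydrolase Ephx2 fell again between the tumour groups (-1.85 (SE 0.23, limma adjusted p = 3.63e-05)). Of 9 other conjugating enzymes, 4 were lower in each tumour group than in wild type and none higher, with 0 higher also at unadjusted p under 0.05 (limma, medians -0.39 and -0.30). Hnmt, the histamine methyltransferase, was the 1 gene of the list called between the tumour groups (-0.97 (SE 0.22, limma adjusted p = 0.00431)).

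Regulators known from liver and gut were mostly lower than in wild type. Beside the counts below, 24.8% of all genes were higher and 25.5% lower in Apc/Tgif-labelled tumours against wild type. The shares were 23.9% and 25.2% in Apc tumours, and 7.88% and 8.76% between the tumour groups. Of 15, 9 were called lower and 1 higher in Apc/Tgif-labelled tumours against wild type, 8 lower and 1 higher in Apc tumours, and 3 lower and 1 higher between the tumour groups, with medians of -1.09, -1.11 and -0.19 in that order. Nr5a2 averaged 103 normalized counts in Apc/Tgif-labelled tumours, 283 in Apc tumours and 1910.3 in wild-type colon, Ppara 66.4, 169 and 668, and Hnf4a 16768, 13746 and 35103. Nr5a2 and Ppara fell again between the tumour groups (-1.47 (SE 0.31, limma adjusted p = 0.00321) and -1.41 (SE 0.28, limma adjusted p = 0.00194)), and Hnf4a did not pass the test there (0.31, adjusted p = 0.137). Of 9 target genes of Nfe2l2, the factor of the antioxidant response, 4 were higher and 5 lower in Apc/Tgif-labelled tumours, and 4 higher and 1 lower in Apc tumours (medians -0.58 and -0.01). This list shares genes with the glutathione list above, Slc7a11 among them, so the 2 counts are not separate results. Hmox1, which breaks down haem, averaged 867 in Apc/Tgif-labelled tumours, 1405 in Apc tumours and 202 in wild-type colon, and Osgin1 was higher in Apc/Tgif-labelled than in Apc tumours (1.13 (SE 0.21, limma adjusted p = 0.00109)). Of 3 tested target genes of the aryl hydrocarbon receptor, Cyp1b1 was higher (2.87 and 2.37) and Ahrr lower (-2.13 and -1.89) in the tumour groups than in wild type, and none was called between the tumour groups, with 0 also at unadjusted p under 0.05 (limma). Ahrr was also counted among the regulators.

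Promoters were searched for 7 motifs on both strands, from 250 bases before to 50 after the start, in 40 of the 46 genes that had one in the RefSeq table of GRCm38.p6 and in all 32851 promoters of that table. The Hnf1 letters (GTTAAT, any base, ATT) were in 2 of 40, Sult1d1 and Ugt1a1, or 5.0%, against 0.399% of all promoters. The Cdx letters TTTATG were in 8 of 40 or 20.0%, against 11.9%, and 4 of these were Ces1 genes. The Tgif core CTGTCA was in 7 of 40 or 17.5%, against 19.2%, and the antioxidant response core TGACNNNGC in Gsta3, Gstm5 and Mgst1 or 7.5%, against 12.4%. The Ahr core TNGCGTG was in 1 of 40 or 2.5%, against 5.07%, and the Hnf4a letters CAAAGTCCA and the Tcf/Lef letters CTTTGAT were in none of 40, against 0.475% and 3.73%. These shares describe letters in a window, and neighbouring Ces1 promoters are related copies.

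The effect of the Apc/Tgif label differed between females and males for 17 of the 46 genes (male effect minus female effect, limma adjusted p under 0.05), against 23.6% of all genes tested. The difference was negative for 12 and positive for 5, with a median over the 46 genes of -0.47 against -0.02 over all genes, and the effects had opposite signs in 10. Among females, 8 genes were higher and 12 lower in Apc/Tgif-labelled than in Apc tumours, against 13.7% and 14.1% of all genes. Among males, 3 were higher and 20 lower, against 8.77% and 9.80%.

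Ugt1a1 had 1409.6, 2080.0 and 759.8 normalized counts in Apc/Tgif-labelled females against 83.2, 55.1 and 35.0 in Apc females, and 325, 511, 397 and 775 in Apc/Tgif-labelled males against 357, 146, 87.9 and 198 in Apc males. The effect was 4.56 in females and 1.45 in males, and the difference was -3.11 (SE 0.63, limma adjusted p = 0.00295). Females did not overlap, while males overlapped by 1 tumour of each group. Sult1a1 had 389, 484 and 268 in Apc/Tgif-labelled females against 295, 157 and 133 in Apc females, and 188, 105, 181 and 168 in Apc/Tgif-labelled males against 941, 542, 418 and 478 in Apc males. It was higher in females (1.01) and lower in males (-1.85), with a difference of -2.86 (SE 0.43, limma adjusted p = 0.00055). Mgst3 had the same form, at 0.73 in females and -1.08 in males, with a difference of -1.82 (SE 0.28, limma adjusted p = 0.000691).

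Ugt1a2 differed by 0.06 in females and -2.99 in males (-3.05 (SE 0.51, limma adjusted p = 0.00112) for the difference), and it was also the 1 gene called for a sex difference in Apc/Tgif-labelled tumours against wild type (-2.74 (SE 0.56, limma adjusted p = 0.0234)), against 3.40% of all genes. Ces2c differed by -0.50 in females and -2.56 in males, and Sult1c2 differed by -1.65 and -4.13 in the same order. In the other direction, Gstm5 differed by -1.55 in females and 0.33 in males, and Sult4a1 by -3.91 and -0.50. Ugt2b34 was higher in both sexes, at 0.61 and 1.43. In Apc tumours against wild type no member was called (limma), with 9 at unadjusted p under 0.05 and 0.0108% of all genes called, and there were only 2 male wild-type libraries.

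Apc tumours 2 and 3, both female, were the 2 lowest of their group for Ces2c (358 and 349 normalized counts), Ces2e, Sult1b1 and Ugt1a7c. The summed colonocyte level was 9109 to 25044 in Apc/Tgif-labelled females and 21853 to 55896 in Apc females, against 10921 to 40021 in Apc/Tgif-labelled males and 38298 to 75128 in Apc males. The part of these colonocyte levels in the sex differences was not tested. The count of 17 was 10 without Apc tumour 3, and between 13 and 20 without any other single library. With libraries scaled on pan-epithelial genes, which put the median sex difference of all genes at 0.37, it was 18, 7 positive and 11 negative, and all genes split into 3429 positive and 876 negative calls, against 2148 and 2204 as deposited. The labels give no batch or day.

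**Figure D5:**
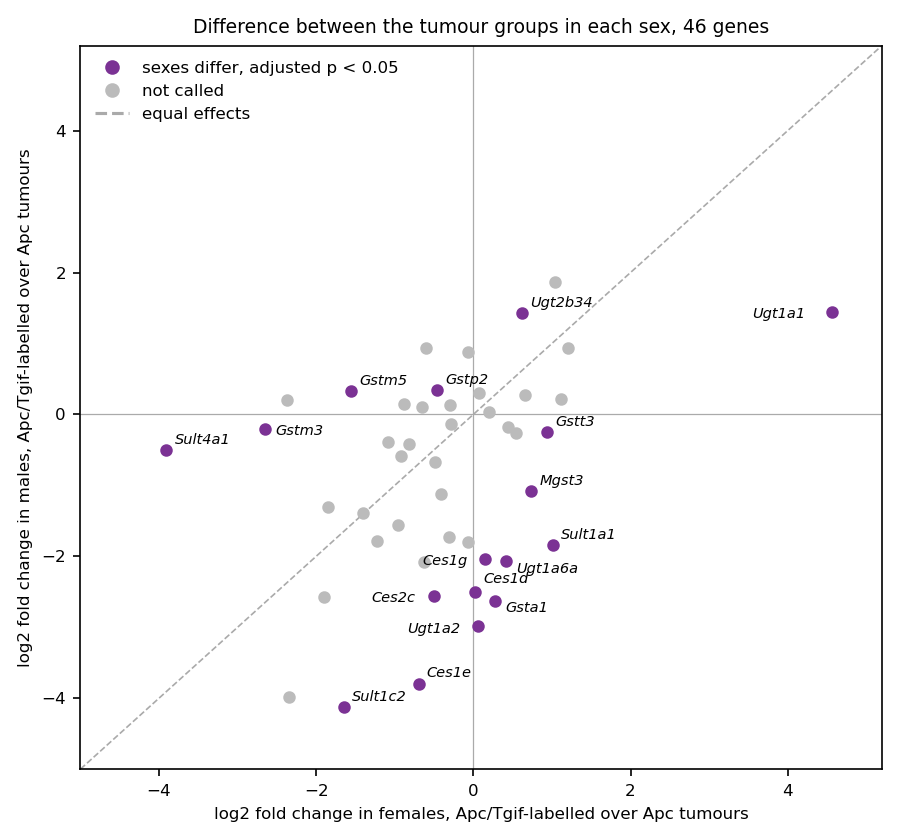
Log2 difference of Apc/Tgif-labelled against Apc tumours in females (x axis) and in males (y axis) for the 46 genes, with named points where the difference between the sexes passed an adjusted p of 0.05 and a line of equal effects. Most named points lie below the line, where the effect in males is lower than that in females, and Ugt1a1 lies furthest to the right.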

How the data were processed

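RNA of 19 mouse colon libraries was selected by poly-A and read from 1 end over 75 bases, per the labels' protocols. The authors deposited 1 table of normalized counts, which are taken here as gene counts divided by a library factor and are treated as a signal. Salmon, DESeq2 and the builds GRCm38 and mm10 are named in the submitters' processing notes, while versions, annotation and strand setting were not given in the sources used here. Overlapping antisense genes therefore cannot be told apart. Low values were whole multiples of the worth of 1 count for 79.3% to 81.4% of values within 0.1 of a step, too few to recover reads, and a count model was not used. Normalized counts were tested as log2(normalized count + 1) with limma 3.58.1 in R 4.3.3 (intensity trend, robust moderation, terms for group and sex, all 19 libraries, two-sided), for 18445 genes with 10 or more normalized counts in at least 5 libraries, with Benjamini-Hochberg adjustment over these genes and a threshold of 0.05. Fold changes are on that scale, which shrinks those of low genes. Sex differences of an effect came from a model of 6 means, 1 for each sex in each group.

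Groups and sex were taken from the labels, and each library is a separate sample of its group. No columns were identical. The genes and the pathway lists, marker lists and motifs were chosen with earlier results of these data known, so their directions are no independent evidence. Within each family, with the cytosolic Gst genes taken by class, values are given for up to 4 genes with the smallest p in each comparison and the gene with the highest mean. Values are also given for Ces1g, Ces2f, Gstm7, Sult2b1 and Sult6b1, which this rule did not pick. From each pathway list at most 4 called genes are named. Shared sequence was measured as the share of 75-base stretches of the longest coding transcript found in another GENCODE M21 transcript, and positions and promoters are from RefSeq, GRCm38.p6 (78 and, for promoters, 40 of 46 matched). The steps were tested on simulated data. Alternatives covered pseudocounts, filters, scaling, design, covariates and leaving out each library. Covariates for smooth muscle and goblet cell level, and the omission of libraries with over 1% 45S pre-ribosomal RNA, were added after seeing the data.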

Additional observations from a re-analysis of the deposited data

Results flagged for a closer look

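Among 138 groups of values (46 genes in 3 groups), 8 held a library far from the others of its group, and chance alone gives about 1 in 20. Apc/Tgif-labelled tumour 2 was low for Gstk1 (70.0 normalized counts, the others 185.8 to 341), Sult2b1 (156, the others 401 to 747) and Sult6b1 (2.72, the others 18.1 to 53.5). Apc/Tgif-labelled tumour 5, the library with 9.35% 45S pre-ribosomal RNA, was high for Gstp1 (8760.2, the others 4142 to 5086) and low for Ugt2b35 (1894, the others 3279 to 4792). In wild-type colon, replicate 1 was high for Ces2b (325, the others 215 to 229), replicate 5 low for Sult1b1 (7481, the others 8014 to 8199) and replicate 4 low for Ugt1a7c (8155, the others 10116 to 10920.2).

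The effect of the Apc/Tgif label against Apc tumours differed between the sexes (effect in males minus effect in females, log2) for 17 genes. The difference was negative for Ugt1a1 (-3.11), Ces1e (-3.10), Ugt1a2 (-3.05), Gsta1 (-2.91), Sult1a1 (-2.86), Ces1d (-2.52), Sult1c2 (-2.48), Ugt1a6a (-2.48), Ces1g (-2.18), Ces2c (-2.05), Mgst3 (-1.82) and Gstt3 (-1.19). It was positive for Sult4a1 (3.40), Gstm3 (2.45), Gstm5 (1.88), Ugt2b34 (0.82) and Gstp2 (0.80). Against wild type, Ugt1a2 differed between the sexes by -2.74 in Apc/Tgif-labelled tumours.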

How the results depend on the processing

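Of 100 calls of 1 gene in 1 comparison, 37 were lost under at least 1 alternative (leaving aside the smooth muscle covariate, and the goblet cell one against wild type), 6 of 39 in Apc/Tgif-labelled and 10 of 39 in Apc tumours against wild type and 21 of 22 between the tumour groups, and 19 of the 38 uncalled results gained a call. The goblet cell covariate by itself lost 21 of the 22 between the tumour groups, whose goblet cell sums barely overlapped. Leaving out each of 19 libraries in turn gave 34 to 36 lower and 3 to 5 higher genes in Apc/Tgif-labelled tumours against wild type, 34 to 36 lower and 3 to 4 higher in Apc tumours, and 13 to 18 lower and 3 to 5 higher between the tumour groups. The counts of sex differences were then 0 to 4, 0 to 0 and 10 to 20 in that order. In Apc/Tgif-labelled tumours against wild type, 5 genes were higher with equal library totals, with pan-epithelial scaling, with only the 2 groups fitted and with quality weights, and 0 with the smooth muscle or the goblet cell covariate (2 and 2 at unadjusted p under 0.05, limma). Lower genes fell to 0 with the smooth muscle covariate (12 unadjusted) and 6 with the goblet cell one. In Apc tumours against wild type the smooth muscle covariate left 0 higher and 0 lower (2 and 11 unadjusted), and the goblet cell one left 15 lower. Neither smooth muscle nor goblet cell sums overlapped between wild type and tumours. In these comparisons both covariates therefore cannot be told apart from the difference between tumour and wild type. Between the tumour groups, higher genes numbered 3 with equal totals, with only the 2 groups fitted and in males alone, 9 in females alone and 0 with the goblet cell covariate (6 unadjusted), and lower genes 10 in females alone and 1 with that covariate. Genes with a sex difference between the tumour groups numbered 11 with only the 2 groups fitted and 7 with the smooth muscle covariate. In Apc/Tgif-labelled tumours against wild type they numbered 0 with pan-epithelial scaling and without the libraries rich in 45S pre-ribosomal RNA (10 and 4 unadjusted), 2 with only the 2 groups fitted and 5 with quality weights, and in Apc tumours 8 with quality weights. The counts of this paragraph are given without the share of all genes called under the same alternative. They therefore do not show whether these genes moved or the calls of all genes did. Among results called either as reported or under the alternative, sign changes were Gsta3 in Apc tumours against wild type with the distal colon covariate (-0.90), and between the tumour groups, in females alone, Ces1d (0.02), Ces1g (0.14), Mgst3 (0.73), Sult1a1 (1.01) and Ugt1a2 (0.0587), and with the goblet cell covariate Ces1g (0.0723) and Ugt1a7c (1e-04). Of the uncalled results, 27 changed sign under some alternative, Gsta3, Mgst3 and Sult1a1 included. No called gene changed sign under another scaling. The causes were not tested. No paired analysis was possible because the labels give no replicate numbers shared between groups. Depth limits genes near 10 normalized counts, such as Gsto2, Sult4a1 and Sult6b1, and reads shared among Ugt1a isoforms, Gsta1 and the Gstp pair limit their single values.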

Other observations

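Among the 9 genes that missed the filter but reached 10 normalized counts somewhere, Gsta2 did so in 3 libraries (highest 41.8), Ugt1a10 in 4 (highest 28.5), Ugt1a5 in 3 (highest 20.6), Ugt2b1 in 3 (highest 20.0), Ugt2b36 in 3 (highest 19.3), Sult5a1 in 2 (highest 12.5), and Ces3a, Ugt2b5 and Ces2h in 1 each (14.4, 10.1 and 10.1). The male-minus-female difference over all groups was called for 9 of 18445 genes, or 0.0488%.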
